A study of Rattus norvegicus with 6 samples.

Results

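The nuclear genes for the subunits of oxidative phosphorylation were examined in mammary tumors from older and younger rats. Members were chosen by symbol alone: rows of the count table whose symbol starts with Nduf and continues with a, b, c, s or v and a number, the genes Sdha, Sdhb, Sdhc and Sdhd, and rows that start with Uqcr, with Cox4 through Cox8 or with Atp5. Of the 30562 rows of the table, 100 met this rule, 47 by a complex I symbol, 4 by a complex II symbol, 10 by a complex III symbol, 17 by a complex IV symbol and 22 by a complex V symbol. Among them 14 have pseudogene symbols and 3 repeat the symbol of another row. No reads were counted in any tumor for 9 members, 8 more had too few counts to be tested, and 83 were tested, of which 78 are neither pseudogenes nor repeated symbols. The 8 with too few counts were Ndufa10l1, Cox6a2 and 6 pseudogene or repeated rows, and the 9 without counts included Cox7b2, Cox8c and Ndufb4l1.

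The bulk RNA-seq comprised 6 tumors of inbred Fischer 344 (F344) rats. Tumors 102, 107 and 116 grew in older hosts, and tumors 157, 158 and 167 in younger hosts. Every rat carried an implanted 50 mg pellet of medroxyprogesterone acetate (MPA), a progestin, with release over 90 days, and received 65 mg per kg of the carcinogen 7,12-dimethylbenz[a]anthracene (DMBA) by gavage. At DMBA treatment the younger hosts had an age of 4 months and the older hosts of 21 to 23 months. The age of the rats at tumor collection and which rat bore which tumor are not given in the sources used here. Each tumor was a single library of whole frozen tissue, and the older tumors were those with enough tissue, so p-values measure the spread between these tumors only. Tumors without DMBA and MPA were not analysed here, and host age was the only contrast.

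Oxidative phosphorylation takes place in the inner mitochondrial membrane. Complex I accepts electrons from NADH and complex II from succinate. Electrons then pass through complex III and cytochrome c to complex IV, which reduces oxygen, and complexes I, III and IV pump protons that drive ATP synthase, called complex V. Most subunits are encoded in the nucleus, a few core subunits of complexes I, III, IV and V are encoded in mitochondrial DNA, and complex II is wholly nuclear. Some complex IV subunits have paralogs that replace each other by tissue or oxygen supply. In mammary tumors the balance between this pathway and glycolysis is much studied.

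Library totals ran from 3508571 to 6525830 counts, at which 3 counts, taken as the floor, equal 0.516 to 0.990 CPM (a gene's share of the library, in counts scaled to a common total with TMM factors). This floor covers counting error only. The members together held 0.285% to 0.511% of the counts, least in tumor 102. Tumor 102 stood apart. Its Spearman correlation with the other tumors, across genes, was 0.812 to 0.872, whereas pairs among the other 5 tumors gave 0.881 to 0.934. Its mean log2 CPM of 11 proliferation genes was 3.34, against 5.40 to 6.21 in the other tumors, and its adipocyte marker score was 5.29, against 2.45 to 3.80. Luminal epithelial markers, which define the labelled tissue, scored between 6.86 and 7.28 in all 6 tumors. All 3 older tumors scored below all 3 younger tumors, with group means of 6.99 and 7.25. Of the 9 luminal markers tested, 3 were lower in older tumors without overlap, where 5.58% of all genes were. Single luminal markers varied more, such as Elf5 at 39.4 to 672 CPM and Esr1 at 4.29 to 57.5 CPM over the 6 tumors. Of 14 skeletal muscle markers, a list for a tissue rich in these subunits, the 6 tested summed to between 11.0 and 67.6 CPM. By sign 3 of them were lower and 3 higher in older tumors. Acta1 among them was at 45.9 CPM in tumor 107 and at 1.55 to 21.5 CPM in the other tumors. Outside the sum, the untested Ckm, muscle creatine kinase, was at most 0.712 CPM in any tumor. The untested Myh2 was at 10.3 CPM in tumor 107.

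Transcripts for the nuclear subunits were slightly lower in tumors from older rats by sign, across all 5 complexes, without passing the test. By the sign of edgeR's log2 fold change, 74 of the 83 tested members were lower in older tumors, against 50.4% of the 14060 genes tested. The median log2 fold change (older minus younger) was -0.23, a ratio of 0.853, and the median over all genes was -0.00. With p-values adjusted over all genes, 0 of the 83 members passed 0.05 in edgeR's quasi-likelihood test, in which 0% of all genes passed. At an unadjusted p under 0.05, 1 member (Cox4i2) was lower and 0 were higher, where 3.26% of all genes were lower at that p. In 8 members all 3 older tumors lay below all 3 younger tumors, and in 0 members the reverse held, where 5.58% of all genes were lower without overlap. DESeq2's Wald test called 1 member, Cox4i2, with 0.813% of all genes called lower. Cox4i2 had 3 or 4 counts in each older tumor and passed the filter on low counts only through the younger tumors. Its p-values are therefore a description.

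The size of the shift depended on which tumor was left out. Tumor 102 was the lowest of the 6 tumors for 49 members (59.0%), against 27.3% of all genes. Tumor 107 was the lowest for 16 more (19.3%), against 13.1% of all genes. Tumors 158 and 167 were the highest for 29 (34.9%) and 30 (36.1%) members, against 16.6% and 18.7% of all genes. Without tumor 102, 66 of 83 members were lower by sign, against 52.8% of all genes, the median was -0.13, and 9 members (10.8%) were lower without overlap, against 8.86% of all genes. Without tumor 116, the older tumor with the highest levels, the median was -0.36, 37 members (44.6%) were lower without overlap, against 13.6% of all genes, and 6 members were lower at an unadjusted p under 0.05, against 3.91%. Leaving out tumor 107, 157, 158 or 167 gave 11 (13.3%), 16 (19.3%), 11 (13.3%) and 12 (14.5%) members lower without overlap, against 10%, 8.1%, 11% and 12% of all genes, so that only the shares without 116 and 157 stood well above the background. Without tumor 102 the medians of complexes I to V went from -0.18, -0.14, -0.27, -0.31 and -0.28 to -0.12, -0.07, -0.17, -0.18 and -0.16. No member passed the adjusted threshold in edgeR without any of the 6 tumors. In bulk tissue, fewer cells of a type and less RNA per cell cannot be told apart.

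**Figure D1:**
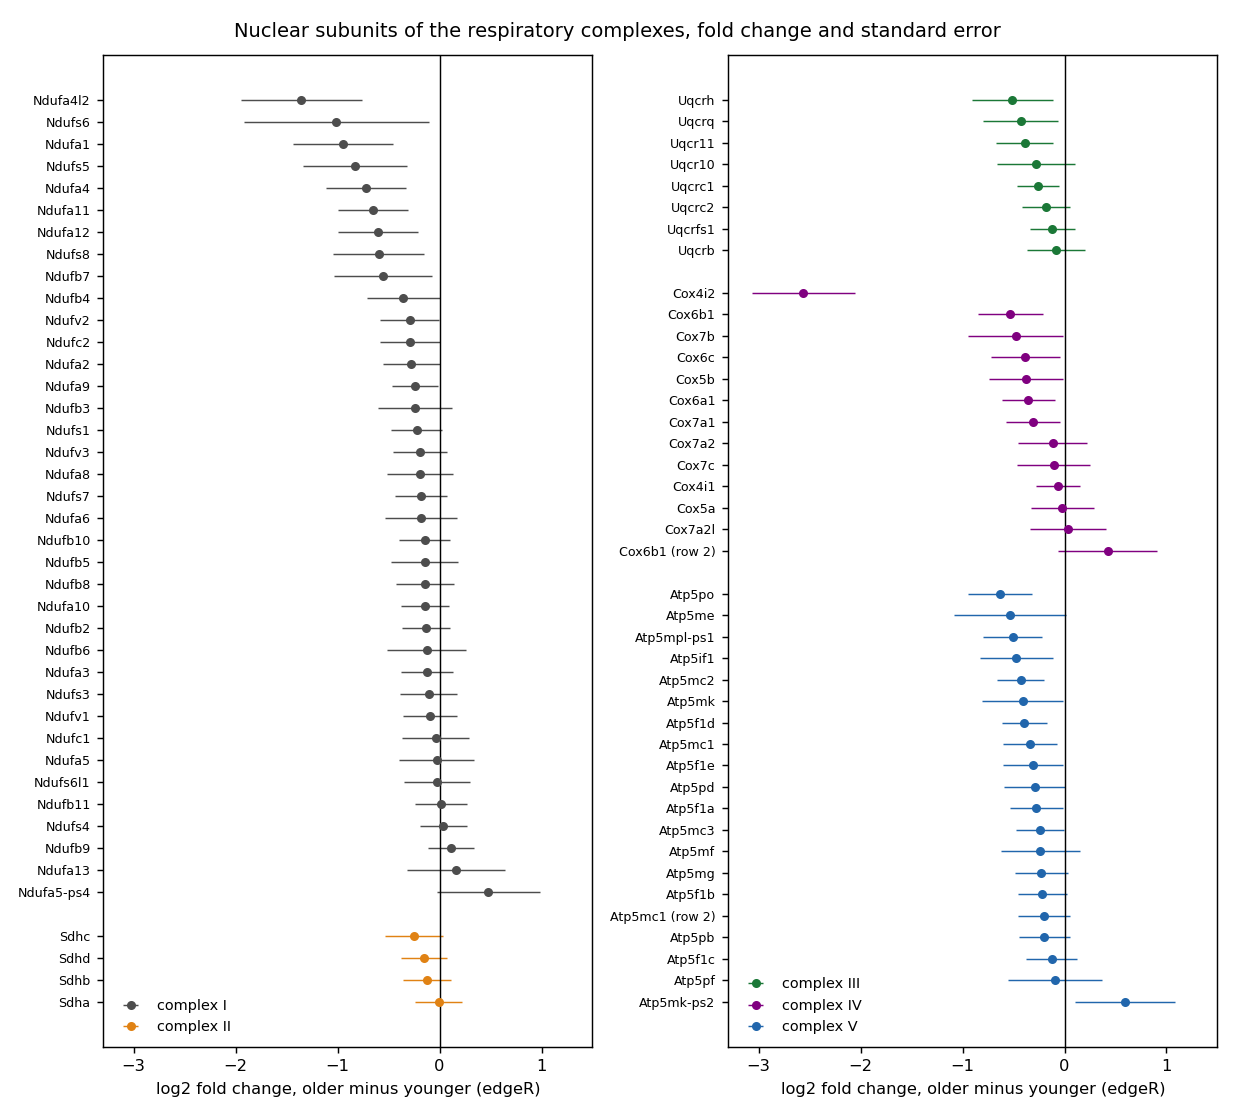
Log2 fold change (older minus younger, edgeR, x axis) of tested members (82 drawn), with bars of 1 standard error, in rows by complex and sorted within it. Points left of the line at 0 are lower in older tumors: 74 members lie there, most within 0.5 of the line, and Cox4i2 lies farthest left at -2.56.

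The mean level over the members differed within the age groups as well as between them. The mean log2 CPM of all 83 members was 4.49 in tumor 102, 4.78 in tumor 107 and 5.01 in tumor 116, and 4.93, 5.11 and 5.12 in tumors 157, 158 and 167. Tumor 116 thus lay above tumor 157, so that the age groups overlapped. The spread of a member was smaller than that of a typical gene, with a median SD of log2 CPM over the 6 tumors of 0.33 for members and 0.45 for all genes tested. The median pairwise Pearson correlation between members was 0.43 over the 6 tumors, 0.41 within a complex and 0.44 between complexes, a description of values that share libraries and scaling. Of the 29 members over 50 CPM 27 were lower by sign, with a median log2 fold change of -0.22, and of the 43 members between 10 and 50 CPM 41 were lower, with a median of -0.24. The 11 members under 10 CPM went both ways, 6 lower and 5 higher, with a median of -0.24 and quartiles of -0.78 and 0.45. The difference between these classes was not tested.

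**Figure D2:**
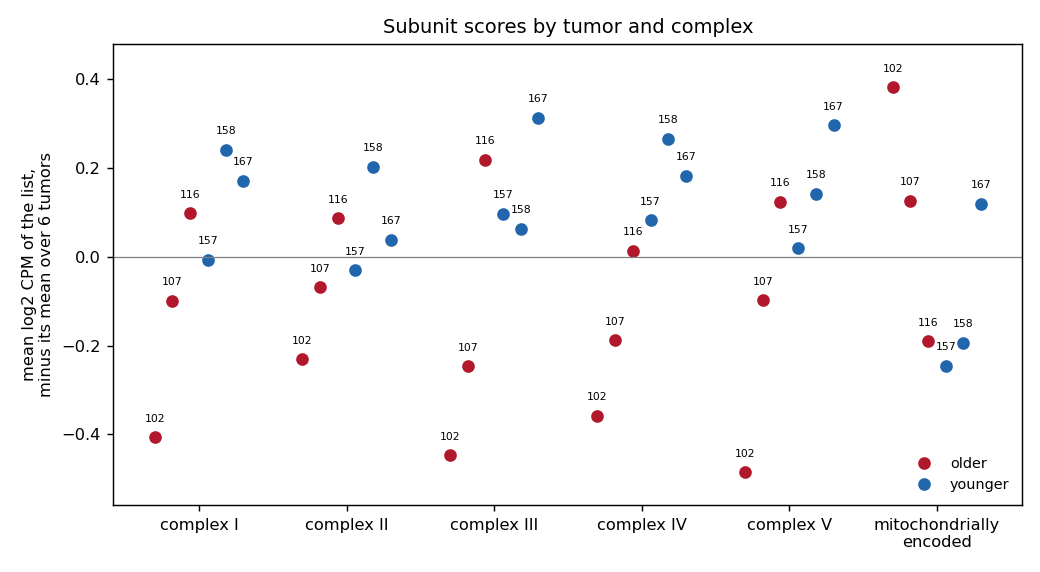
Mean log2 CPM of the tested subunits of each complex and of the mitochondrially encoded subunits in each tumor (labelled by its number, older red, younger blue), minus the mean over the 6 tumors. Tumor 102 is lowest for all 5 nuclear sets and highest for the mitochondrially encoded set. In complex IV all 3 older tumors lie below the 3 younger ones, but the order of tumors 116 and 157 there rests on Cox4i2.

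The sequence around the start site was read for the members to describe what they share beside their symbols. RefSeq's GRCr8 annotation gave a window from 250 bases before to 50 bases after the start for 68 of the 78 tested member genes, and 33469 windows in all. The letters searched on both strands were GCGCATGCG for NRF1, CCGGAAG for ETS factors such as GABP, AAGATGG for YY1 and ACGTG for hypoxia-inducible factors. NRF1 and GABP are regulators known for respiratory chain genes. GCGCATGCG nearly equals its own reverse complement, so matches on both strands may overlap by all but 1 base, and no letters of one motif contain another. The NRF1 letters were in 8.82% of the member windows against 1.52% of all windows (1.93% of protein-coding ones), the ETS letters in 29.4% against 8.75%, the YY1 letters in 26.5% against 7.01%, and the hypoxia letters in 25% against 19.3%. Of the protein-coding windows, 10.7% held the ETS letters, 7.3% the YY1 letters and 19.8% the hypoxia letters. At least 1 of NRF1, ETS and YY1 was in 51.5% of the member windows, 16.0% of all windows and 18.4% of the protein-coding windows. The median log2 fold change was -0.48 for the 6 members with the NRF1 letters and -0.22 for the 62 without them, -0.25 and -0.24 with and without the ETS letters, -0.24 and -0.23 for YY1, and -0.19 and -0.26 for the hypoxia letters. Without tumor 102 these medians were -0.27 and -0.12 with and without the NRF1 letters, -0.12 and -0.16 for ETS, -0.17 and -0.12 for YY1 and -0.14 and -0.16 for the hypoxia letters. These are matches of letters, not measured binding.

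Shown first are the 3 members with the NRF1 letters whose age groups did not overlap (Ndufa11, Uqcrc1 and Atp5mc2), then Cox4i1, the common paralog of Cox4i2, and Ndufa4l2, the paralog of Ndufa4. The first 3 were picked for that lack of overlap. Atp5me, Atp5mg and Atp5po also hold the NRF1 letters and overlapped between the age groups. Of the 6 member windows with the NRF1 letters 4 were of complex V. Each window is from RefSeq, build GRCr8, written 5′ to 3′ on the gene's own strand, with matches to the 4 motifs in capitals.
Ndufa11 (chr9:1637364-1637663, plus strand): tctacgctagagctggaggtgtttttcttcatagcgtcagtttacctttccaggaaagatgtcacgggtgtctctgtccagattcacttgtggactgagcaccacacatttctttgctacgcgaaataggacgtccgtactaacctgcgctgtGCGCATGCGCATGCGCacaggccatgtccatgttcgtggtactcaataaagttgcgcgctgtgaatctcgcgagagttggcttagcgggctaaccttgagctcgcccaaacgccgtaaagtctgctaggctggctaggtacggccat
Uqcrc1 (chr8:118467973-118468272, plus strand): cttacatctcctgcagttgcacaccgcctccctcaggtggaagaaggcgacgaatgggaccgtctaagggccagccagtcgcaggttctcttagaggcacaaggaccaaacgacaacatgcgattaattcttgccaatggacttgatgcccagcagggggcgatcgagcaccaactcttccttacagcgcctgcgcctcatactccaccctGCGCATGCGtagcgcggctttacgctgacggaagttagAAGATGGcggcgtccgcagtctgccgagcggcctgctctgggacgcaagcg
Atp5mc2 (chr7:135678169-135678468, minus strand): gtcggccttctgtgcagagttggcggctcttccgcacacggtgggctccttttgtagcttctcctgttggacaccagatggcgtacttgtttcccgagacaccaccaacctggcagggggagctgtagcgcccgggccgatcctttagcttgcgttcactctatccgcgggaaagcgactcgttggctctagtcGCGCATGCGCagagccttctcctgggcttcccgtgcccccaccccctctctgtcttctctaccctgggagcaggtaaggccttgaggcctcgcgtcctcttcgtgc
Cox4i1 (chr19:65630133-65630432, plus strand): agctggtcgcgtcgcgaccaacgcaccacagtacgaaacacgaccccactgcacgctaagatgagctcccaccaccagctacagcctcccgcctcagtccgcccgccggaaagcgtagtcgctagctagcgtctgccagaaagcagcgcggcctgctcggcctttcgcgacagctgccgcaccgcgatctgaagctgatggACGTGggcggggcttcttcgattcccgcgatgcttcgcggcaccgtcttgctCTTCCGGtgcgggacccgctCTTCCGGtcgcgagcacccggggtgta
Ndufa4l2 (chr7:65241919-65242218, plus strand): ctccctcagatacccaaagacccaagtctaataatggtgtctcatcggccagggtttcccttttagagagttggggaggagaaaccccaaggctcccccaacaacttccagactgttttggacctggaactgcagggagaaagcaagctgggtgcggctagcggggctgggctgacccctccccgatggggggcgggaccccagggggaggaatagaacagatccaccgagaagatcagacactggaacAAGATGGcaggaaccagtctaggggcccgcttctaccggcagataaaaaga
In Ndufa11 the NRF1 letters overlap in a repeat that starts 97 bases before the start site, in Atp5mc2 they start 56 bases before it, and in Uqcrc1 they start 39 bases before it. The YY1 letters of Uqcrc1 and of Ndufa4l2 begin 1 base before the start site and run across it. Cox4i1 holds the ETS letters on the opposite strand 4 and 24 bases into the transcript and the hypoxia letters 49 bases before it. The table holds no window named Cox4i2.

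In complex I, 32 of 38 tested members were lower in older tumors by sign, with a median log2 fold change of -0.18, and 2 were lower without overlap, a share near the 5.58% of all genes. Ndufa11, an accessory subunit of the membrane arm, was at 18.5, 38.8 and 44.3 CPM in older tumors 102, 107 and 116 and at 53.6, 55.4 and 51.3 CPM in younger tumors 157, 158 and 167. Tumor 102 was far below the rest and the groups did not overlap. The log2 fold change was -0.65 (standard error 0.34, edgeR adjusted p = 0.701). Ndufs8, a core subunit that carries iron-sulfur clusters, was at 3.63, 10.1 and 10.1 CPM against 12.0, 13.2 and 11.2 CPM. Here again tumor 102 was lowest and the other older tumors came close to tumor 167, with a log2 fold change of -0.60 (standard error 0.44, edgeR adjusted p = 0.817).

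The 7 core subunits of complex I had a median log2 fold change of -0.19. Ndufs1, the largest iron-sulfur subunit, was at 76.2, 130 and 104 CPM in older tumors and 125, 120 and 118 CPM in younger tumors. Tumor 107 lay above all younger tumors and tumor 102 below them. Ndufv1, which binds NADH and the flavin, was at 37.6, 44.5 and 54.6 CPM against 53.1, 54.5 and 38.2 CPM, so the groups interleaved.

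Among the accessory subunits of complex I, 26 of 30 were lower in older tumors by sign. Ndufa1, a small membrane subunit needed for assembly, was at 6.93, 5.05 and 15.5 CPM in older tumors and 11.9, 22.5 and 19.0 CPM in younger tumors. Tumor 116 lay above tumor 157, and the log2 fold change was -0.95 (standard error 0.49, edgeR adjusted p = 0.699). Ndufs5 was at 3.96, 5.27 and 13.5 CPM against 11.9, 12.0 and 17.3 CPM and Ndufa12 at 9.24, 19.3 and 25.7 CPM against 28.2, 23.2 and 31.6 CPM, again with tumor 116 inside the younger range. Ndufs4, Ndufb9, Ndufb11 and Ndufa13 were higher by sign, with log2 fold changes between 0.02 and 0.16. Ndufs6, whose gene model overlaps Mrpl36 in RefSeq, was at 0.330 to 6.17 CPM with a log2 fold change of -1.01 (standard error 0.91). The strand setting of the counting is not given in the sources used here, so reads of overlapping genes could not be told apart.

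Ndufa4 carries a complex I symbol, although its protein is now counted with complex IV. It was at 32.3, 39.3 and 68.5 CPM in older tumors and 54.5, 64.2 and 113 CPM in younger tumors, with tumor 116 between the younger values and a log2 fold change of -0.72 (standard error 0.39, edgeR adjusted p = 0.720). Its paralog Ndufa4l2, known as a gene induced by hypoxia-inducible factor 1 that lowers complex I activity, was at 1.32, 3.73 and 2.13 CPM against 7.74, 8.09 and 2.85 CPM. The younger tumors 157 and 158 stood above the other 4, and tumor 167 lay below tumor 107. The log2 fold change was -1.36 (standard error 0.59, unadjusted p = 0.0521, adjusted p = 0.592, edgeR). Over pooled counts, 32 in older and 103 in younger tumors, the younger level was 2.61-fold higher, with a 95% interval from 1.74 to 4.02 for counting error only. Ndufa4l2 overlaps Shmt2 in RefSeq.

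Complex II, succinate dehydrogenase, which also works in the tricarboxylic acid cycle, had the median closest to 0 of the 5 complexes. All 4 subunits were lower by sign with a median of -0.14. Sdha, the flavoprotein that oxidises succinate, was at 128, 128 and 113 CPM in older tumors and 113, 152 and 106 CPM in younger tumors, a log2 fold change of -0.01 (standard error 0.23, edgeR adjusted p = 0.996). The values interleaved, and an interval of 2 standard errors leaves room for a change in either direction. Sdhb, the iron-sulfur subunit, was at 50.1, 47.4 and 55.9 CPM against 46.9, 53.8 and 66.3 CPM. The membrane anchors Sdhc and Sdhd had log2 fold changes of -0.25 and -0.15 (standard errors 0.28 and 0.23). Sdhc was at 46.5 CPM in tumor 102 and between 76.0 and 92.7 CPM in the other 5 tumors. Sdhd was at 58.7, 58.2 and 77.2 CPM against 68.9, 77.4 and 69.6 CPM, with tumor 116 inside the younger range.

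In complex III, the cytochrome bc1 complex, all 8 tested members were lower by sign, with a median of -0.27. Of these 1 was lower without overlap, where 5.58% of all genes were. Uqcrc1, a core protein of the matrix side, was at 59.0, 57.9 and 67.2 CPM in older tumors and 78.0, 67.9 and 74.8 CPM in younger tumors. Tumors 116 and 158 almost met, and the log2 fold change was -0.26 (standard error 0.21, edgeR adjusted p = 0.841). Uqcrc2, the other core protein, was at 127, 117 and 142 CPM against 126, 132 and 180 CPM. Uqcrfs1, the Rieske iron-sulfur protein, was at 74.9, 62.8 and 76.6 CPM against 71.7, 88.5 and 72.7 CPM, a log2 fold change of -0.12. Both genes overlapped between the age groups.

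The small subunits of complex III had log2 fold changes from -0.51 to -0.09. Uqcrh, the hinge protein at cytochrome c1, was at 15.5, 17.6 and 32.7 CPM in older tumors and 29.4, 21.5 and 43.5 CPM in younger tumors, a log2 fold change of -0.51 (standard error 0.40, edgeR adjusted p = 0.832). Uqcr11 was at 20.5, 18.4 and 30.0 CPM against 29.4, 29.2 and 31.8 CPM, with tumor 116 just inside the younger range. Uqcrq was at 16.2, 32.9 and 44.5 CPM against 42.6, 43.1 and 40.8 CPM, where tumor 116 was the highest of all 6.

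Complex IV, cytochrome c oxidase, held the lowest log2 fold change of all members. Of its 13 tested members 11 were lower by sign, and the median was -0.31. Without overlap 3 were lower, Cox4i2 among them, where 5.58% of all genes were lower without overlap. The score of complex IV was 4.54, 4.71 and 4.92 in older tumors and 4.98, 5.17 and 5.08 in younger tumors, without overlap. That score includes Cox4i2, which passed the filter on low counts only through the younger tumors. The order of tumors 116 and 157 rests on Cox4i2, so the lack of overlap is a description only. Cox6b1, the subunit that joins the monomers of the dimer, was at 33.3, 65.2 and 73.2 CPM against 85.4, 87.8 and 75.5 CPM, a log2 fold change of -0.53 (standard error 0.32, edgeR adjusted p = 0.758). Cox6a1, the widespread form of its subunit, was at 20.5, 30.3 and 27.5 CPM against 30.4, 37.3 and 32.5 CPM, a log2 fold change of -0.35 (standard error 0.26, edgeR adjusted p = 0.813). In both genes the groups just failed to meet, at tumors 116 and 167 for Cox6b1 and at tumors 107 and 157 for Cox6a1. A second row named Cox6b1, at 2.14 to 6.27 CPM, had a log2 fold change of 0.42, and reads could have been split between the rows. Cox5a, which holds no redox centre, was at 85.4, 67.2 and 60.6 CPM against 68.6, 98.9 and 48.9 CPM, so the groups interleaved.

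Cox4i2, the form of subunit 4 known from lung and pericytes and from cells at low oxygen, was the member with the smallest p. It was counted 3, 3 and 4 times in older tumors 102, 107 and 116 and 26, 35 and 16 times in younger tumors 157, 158 and 167. On the CPM scale this was 0.990, 0.658 and 0.774 against 4.47, 6.16 and 3.80. The 3 older tumors sat at about the floor of 3 counts and every younger tumor was above them. The log2 fold change was -2.56 (standard error 0.51, unadjusted p = 0.0011, adjusted p = 0.241, edgeR), and -2.61 with an adjusted p of 0.0224 in DESeq2. Cox4i2 passed the filter on low counts only through the younger tumors, where it was high, and a filter of at least 10 counts in every tumor removed it, so these values are a description. Pooled counts of 10 in older and 77 in younger tumors gave a 6.25-fold higher level in younger tumors, with a 95% interval of 3.22 to 13.6 that covers counting error only. Without tumor 102 the log2 fold change was -2.71 (edgeR adjusted p = 0.369), so that tumor did not set the difference.

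Cox4i1, the widespread form of the same subunit, overlapped between the groups, at 76.5, 68.2 and 94.3 CPM in older tumors and 83.0, 83.0 and 83.8 CPM in younger tumors. Its log2 fold change was -0.06 (standard error 0.22, edgeR adjusted p = 0.973). The log2 ratio of Cox4i2 to Cox4i1 within a tumor, computed with a prior count of 2, was -5.77, -5.99 and -6.31 in older tumors and -4.09, -3.67 and -4.32 in younger tumors. The ratios did not overlap and their means differed by -2.00, or by -2.34 with a prior count of 0.5. A two-sided exact permutation test gave p = 0.1, the smallest that 3 against 3 tumors allow, and 0.4 after Benjamini-Hochberg adjustment over the 4 pairs compared. This test cannot decide whether the ratio differs by age, because Cox4i2 was kept only through the younger tumors. The ratio is therefore a description, like the levels of Cox4i2.

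The other pairs of paralogs overlapped between age groups. Cox7a1, the heart and muscle form of subunit 7a, was at 244, 203 and 155 CPM in older tumors and 230, 291 and 226 CPM in younger tumors, and Cox7a2, the widespread form, at 7.59, 9.88 and 11.8 CPM against 10.7, 9.85 and 11.4 CPM. The log2 ratio of Cox7a1 to Cox7a2 differed by -0.19 (exact permutation p = 0.8, adjusted 0.8). Cox7a1 overlaps Capns1 and Cox7a2 overlaps Tmem30a in RefSeq, so the levels of both are uncertain without the strand setting. Cox7a2l, which links complexes III and IV in supercomplexes, was at 113, 66.3 and 83.2 CPM against 61.5, 62.6 and 132 CPM, and its log2 ratio to Cox7a2 differed by 0.24 (exact permutation p = 0.5, adjusted 0.8). The log2 ratio of Ndufa4l2 to Ndufa4 differed by -0.49 (exact permutation p = 0.7, adjusted 0.8). Cox6a2, the muscle form of subunit 6a, had too few counts to be tested, with 2, 0 and 0 counts in older tumors and 17, 11 and 2 in younger tumors. The pooled ratio was 12.2 in favor of younger tumors, with a 95% interval from 3.09 to 105 for counting error only.

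**Figure D3:**
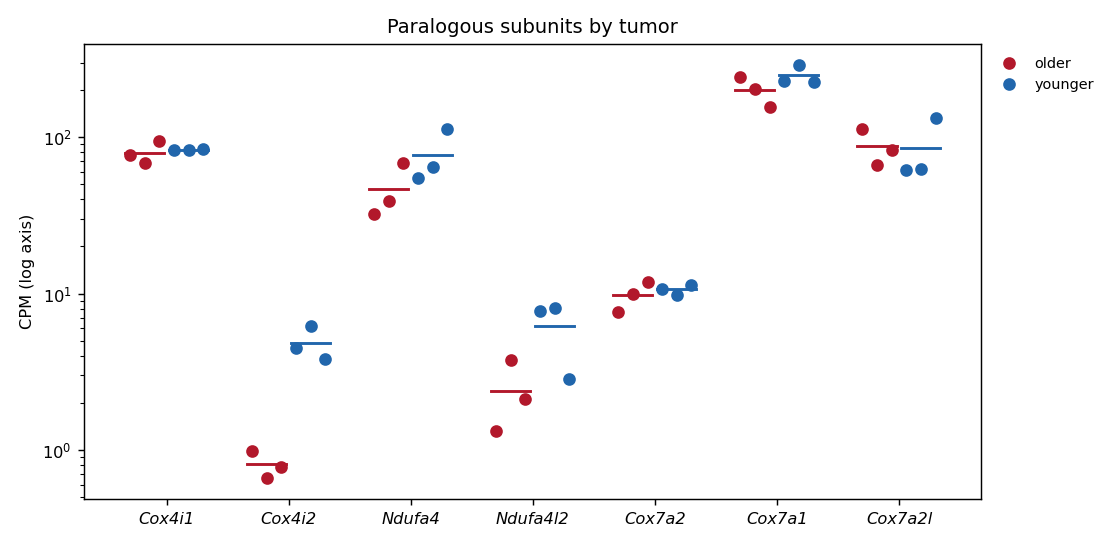
CPM (log axis) of paralogous subunits in each tumor, older in red and younger in blue, with a bar at each group mean (n = 3). Cox4i2 is at 0.658 to 0.990 CPM in older tumors and 3.80 to 6.16 CPM in younger tumors, whereas Cox4i1 stays between 68.2 and 94.3 CPM in all 6.

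Values of other genes moved beside Cox4i2 and Ndufa4l2. Of 20 hypoxia and glycolysis genes, all 20 were lower in older tumors by sign, against 50.4% of all genes. At an unadjusted p under 0.05 in edgeR, 10 were lower, against 3.26% of all genes, and 0 passed after adjustment. Their median log2 fold change was -1.12. Their score was 5.74, 5.14 and 5.41 in older tumors and 6.90, 6.79 and 6.16 in younger tumors, a difference of -1.19, or -1.34 without tumor 102. Car9, a carbonic anhydrase induced by low oxygen, had a log2 fold change of -3.08 (edgeR adjusted p = 0.156), and Pgk1, a glycolytic enzyme, of -1.57 (edgeR adjusted p = 0.228). Of 10 pericyte and smooth muscle markers, all tested, 8 were lower by sign, with a score of 5.42, 6.54 and 4.48 against 6.38, 6.02 and 5.69 and summed levels of 601 to 2800 CPM in older and 1724 to 2309 CPM in younger tumors. Kcnj8, a pericyte potassium channel, had a log2 fold change of -1.41 (edgeR adjusted p = 0.511) and Des, desmin, of 3.43 (edgeR adjusted p = 0.508), with 208 CPM in tumor 107 against 2.85 to 18.5 CPM elsewhere. The part of either list in the Cox4i2 values was not tested.

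Complex V, ATP synthase, was lower by sign for 19 of 20 tested members, with a median of -0.28, and tumor 102 was lowest for 17 of the 20. In the F1 head, which makes ATP, all 5 subunits were lower by sign. Atp5f1b, the catalytic beta subunit, was at 242, 283 and 323 CPM in older tumors and 329, 315 and 342 CPM in younger tumors, a log2 fold change of -0.22 (standard error 0.24, edgeR adjusted p = 0.900). Only tumor 116 passed into the younger range. Atp5f1a, the alpha subunit, was at 181, 206 and 255 CPM against 281, 290 and 206 CPM, a log2 fold change of -0.28. Atp5f1d, the delta subunit of the central stalk, was at 52.5, 52.9 and 56.9 CPM against 77.4, 75.5 and 60.3 CPM. The groups of Atp5f1d did not overlap, the log2 fold change was -0.39 (standard error 0.22, edgeR adjusted p = 0.732), and tumors 102 and 107 were nearly equal.

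In the rest of ATP synthase the 3 c ring, 4 peripheral stalk and 4 supernumerary membrane subunits tested were all lower by sign. Atp5mc2, 1 of the 3 genes for the proton-carrying c ring, was at 41.9, 53.3 and 60.2 CPM in older tumors and 71.9, 69.3 and 68.2 CPM in younger tumors. The groups did not overlap and the log2 fold change was -0.43 (standard error 0.23, edgeR adjusted p = 0.713). The mature protein of the 3 c ring genes is the same, and Atp5mc1 and Atp5mc3 had log2 fold changes of -0.34 and -0.24, so all 3 genes had the same sign. Atp5mc1 has a second row at 51.5 to 83.5 CPM, between which reads could have been split. Atp5po, the oligomycin sensitivity subunit of the peripheral stalk, was at 36.0, 43.9 and 75.5 CPM against 74.6, 78.6 and 88.6 CPM, a log2 fold change of -0.63 (standard error 0.31, edgeR adjusted p = 0.666). Tumors 102 and 107 were low and tumor 116 was not. Without tumor 102 it was -0.43. In the supernumerary membrane subunits Atp5me, Atp5mf, Atp5mg and Atp5mk tumor 102 was lowest in all 4, and the difference of the scores went from -0.44 to -0.08 when it was left out.

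Atp5if1, the inhibitor that blocks ATP hydrolysis by the synthase, was at 42.2, 40.6 and 37.2 CPM in older tumors and 44.2, 35.7 and 86.9 CPM in younger tumors. Its log2 fold change of -0.47 (standard error 0.36, edgeR adjusted p = 0.822) rested on tumor 167, and without that tumor it was -0.00. Atp5mk-ps2, a pseudogene symbol and the complex V member that was higher by sign, was at 3.96, 5.49 and 2.71 CPM against 1.89, 2.64 and 3.56 CPM. Of the 5 tested rows with a pseudogene or repeated symbol, 3 were higher by sign, and their reads can be shared with the parent gene.

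**Figure D4:**
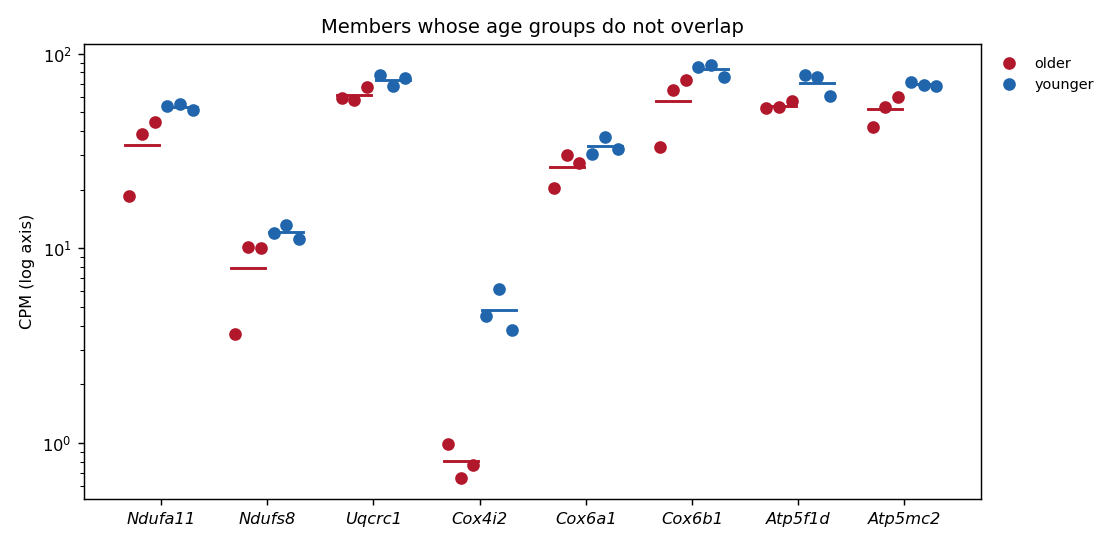
CPM (log axis) in each tumor of the 8 members whose 3 older tumors (red) all lie below the 3 younger tumors (blue), with bars at the group means (n = 3). The members were picked for this order, and the gap is wide for Cox4i2 and narrow for the other 7, such as Uqcrc1 at 67.2 CPM in tumor 116 and 67.9 CPM in tumor 158.

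The subunits encoded in mitochondrial DNA ran the other way by sign. Of the 13 such genes 12 were tested, 11 were higher in older tumors by sign, against 49.6% of all genes, and the median log2 fold change was 0.18. At adjusted p under 0.05, 0 passed in edgeR, and at an unadjusted p under 0.05 also 0. The 2 with the smallest p were Mt-nd3 and Mt-nd4, complex I subunits with log2 fold changes of 0.35 and 0.46 (edgeR adjusted p = 0.799 and 0.855). Their score was 11.8, 11.5 and 11.2 in older tumors and 11.1, 11.2 and 11.5 in younger tumors, a difference of 0.21 that fell to 0.07 without tumor 102. The nuclear score minus the mitochondrial score within a tumor was -7.28, -6.74 and -6.19 in older tumors and -6.22, -6.09 and -6.40 in younger tumors. Tumors 102 and 107 were lowest, tumor 116 was inside the younger range, and the group means differed by -0.50. Without tumor 102 the difference was -0.23. By complex, with all 6 tumors, it was -0.44 for complex I, -0.55 for complex III, -0.72 for complex IV and -0.38 for complex V, and without tumor 102 it was -0.20, -0.32, -0.35 and -0.21.

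**Figure D5:**
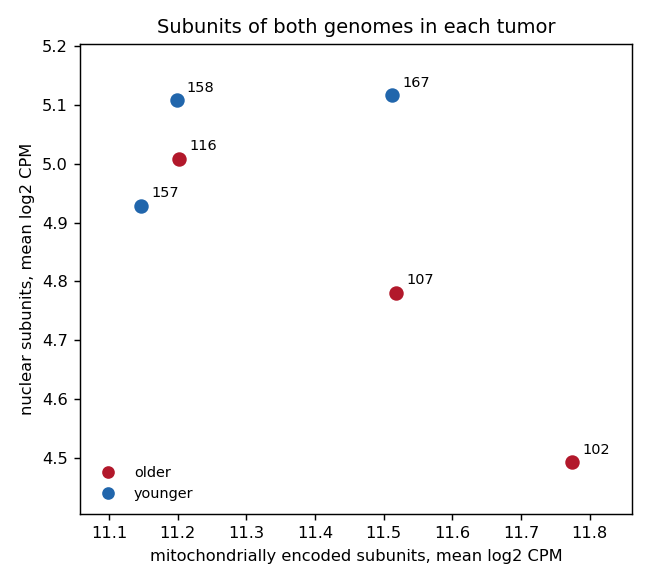
Mean log2 CPM of the 83 tested nuclear members (y axis) against that of 12 mitochondrially encoded subunits (x axis), 1 point per tumor, older red and younger blue. Tumor 102 has the lowest nuclear score, 4.49, and the highest mitochondrial score, 11.8, and tumor 167 is high on both.

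Genes that build or surround the complexes were given for comparison. Among 15 complex I assembly factors 9 were lower by sign with a median of -0.01, among 18 complex IV assembly factors 11 with a median of -0.07, and the 9 complex III and 5 complex V assembly factors had medians of -0.04 and -0.13. Of the 3 complex II assembly factors, 2 were lower, and Sdhaf3 had a log2 fold change of -0.84 (edgeR adjusted p = 0.732). Higd1a, a hypoxia-induced protein of complex IV, was the assembly factor with an unadjusted p under 0.05, at a log2 fold change of -0.97 (edgeR adjusted p = 0.405). Of 5 respiratory genes that the symbol rule leaves out, 4 were lower, among them Cyc1, the cytochrome c1 of complex III, at -0.33. The 17 enzymes of the tricarboxylic acid cycle had a median of -0.06, and 14 regulators of mitochondrial biogenesis a median of -0.04. In none of these lists did a gene pass the adjusted threshold in edgeR, where 0% of all genes passed.

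The ribosomal lists were mostly lower by sign as well. The 72 tested mitochondrial ribosomal proteins, of which 56 were lower by sign, had a median of -0.20, and the 67 tested cytosolic ribosomal proteins, of which 59 were lower, had a median of -0.19. Tumor 102 was lowest for 48 of the mitochondrial and 10 of the cytosolic ribosomal proteins. The score difference went from -0.23 to -0.05 without tumor 102 for the mitochondrial ribosomal proteins and from -0.29 to -0.16 for the members, and was -0.15 with and without it for the cytosolic ribosomal proteins. With all 6 tumors, medians of this size were thus seen in other lists too. The other cell type lists in older against younger tumors had median log2 fold changes of 1.25 over 8 macrophage markers and 0.31 over 7 endothelial markers. The medians were 0.45 over 8 fibroblast markers, -0.25 over 9 luminal markers and 1.35 over 7 adipocyte markers. Of 10 T and B cell markers only 2 were tested, the T cell genes Cd3e and Cd8a, with a median of 2.38. Cd3e passed the filter on low counts only through the older tumors, so that median is a description. Some of the list values rested on tumor 102. Without it the score difference went from 0.25 to -0.61 for the fibroblast list, from 0.83 to 0.17 for the adipocyte list and from 0.45 to 0.16 for the endothelial list. Macrophage scores were 5.60, 5.71 and 4.91 in older tumors and 4.53, 4.08 and 3.63 in younger tumors without overlap, summing to 514 to 1148 CPM against 130 to 285 CPM. The part of these lists in the subunit levels was not tested.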

How the data were processed

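Total RNA from 6 flash-frozen mammary tumors was depleted of ribosomal RNA and sequenced in pairs of 150 bases, per the extract protocol, although other labels give polyA RNA and reads of 100 bases. The authors trimmed the reads, aligned them to mRatBN7.2 with STAR, marked duplicates and counted reads per gene with HTSeq 0.13.5, and deposited raw counts. The annotation, strand setting and use of duplicates are not given in the sources used here. Each column of the table was matched to a tumor by its number.

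Rows without a name (4367) held 2.17% to 3.64% of the counts and stayed in the library sizes and in the fit. In R 4.3.3, edgeR 4.0.16's filterByExpr kept 14060 of 30562 rows. TMM factors scaled the libraries, glmQLFTest compared older with younger tumors without covariates, and p-values were adjusted by Benjamini-Hochberg over all tested genes at 0.05. Scores are means of log2 CPM with a prior count of 2. Standard errors were computed back from the F statistic. Pooled count ratios carry 95% exact binomial intervals. DESeq2 1.42.0, limma 3.58.1 (voom), other scalings and filters, and leaving out each tumor were alternatives. The fits were tested on simulated data. Promoter windows and gene overlaps came from RefSeq GRCr8, another build than the counts, and only names were joined.

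Values in every tumor were given for the 2 members of each complex with the smallest p, the member with the highest mean CPM, paralog pairs and named catalytic subunits. Other members were named after their values were seen. A member that this rule covers is not reported here, although it is in the counts and medians. The members, gene lists and tests were chosen with earlier results of these data known. CPM are not scaled by transcript length, so they served to choose and class members but not to compare transcript levels between genes.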

Additional observations from a re-analysis of the deposited data

How the results depend on the processing

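The median log2 fold change stayed below 0 for the members together and for each complex under all 13 alternatives, between -0.27 and -0.23 for all members with all 6 tumors and between -0.36 and -0.12 with each tumor left out. The count of members past the adjusted threshold was 0 except with DESeq2's Wald test, which called 1. That member was Cox4i2, which was kept only through the younger tumors. Members at an unadjusted p under 0.05 numbered 2 with DESeq2, 2 with every gene of at least 1 count and 0 with at least 10 counts in every tumor, a filter that removes Cox4i2 and Ndufa4l2, among others, from the fit. They numbered 1 to 6 with each tumor left out. Members lower in older tumors without overlap numbered 9 (10.8%) to 37 (44.6%) with each tumor left out, the most without older tumor 116. Of all genes, 8.1% to 13.6% were lower without overlap in those fits. Counted in either direction, the members without overlap numbered 10 to 39, and the share of all genes in either direction is not given here. The ratio of Cox7a2l to Cox7a2 differed by -0.13 to 0.55 and that of Cox7a1 to Cox7a2 by -0.50 to 0.13 with each tumor left out. Of 28 named genes, 7 changed sign somewhere. Cox7a2l was -0.079 with library totals and -0.19 to 0.49 with each tumor left out. With limma-voom Cox5a was 0.0077 and Sdha 0.0073. With each tumor left out Cox5a ran from -0.24 to 0.27, Sdha from -0.11 to 0.17, Cox7a2 from -0.28 to 0.028, Ndufv1 from -0.25 to 0.023, Cox4i1 from -0.21 to 0.034 and Sdhb from -0.24 to 0.019. The cause was not tested. Cox4i2 stayed between -2.71 and -2.34 under the 12 alternatives that gave it a value. At 3 counts an older tumor cannot show how low Cox4i2 lies. No paired analysis was possible because the tumor numbers are not shared between age groups.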
